A study of Mus musculus with 2 samples.

Results

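Immunoglobulin variable genes (V genes) are the gene segments that encode most of the antigen-binding part of an antibody. The members were all genes of the deposited matrices whose symbol starts with Ighv (heavy chain), Igkv (kappa light chain) or Iglv (lambda light chain), which gave 348 of 32285 genes: 185 Ighv, 160 Igkv and 3 Iglv. The tumours came from RM-1, a mouse prostate cancer cell line (labelled genotype WT), injected subcutaneously in C57BL/6 mice that received vehicle or RP-6306, a drug that blocks the kinase PKMYT1, and were collected on day 10 of treatment. White blood cells, sorted by their surface protein CD45, and tumour cells were combined at 3 to 1 before SeekOne DD libraries were prepared (labelled as a 3′ v2 protocol). There was 1 library per group, and the design text names 2 mice without saying that each group came from 1 of them. No test between the libraries was therefore possible. All intervals given are exact 95% intervals (Clopper-Pearson for shares) that cover counting error only.

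In a developing B cell, 1 V segment is cut and joined to short D and J segments (heavy chain) or to a J segment (light chain), and the joined exon is transcribed with a constant gene such as Ighm (the IgM heavy chain) or Igkc (the kappa constant region). Because the other allele is usually silenced, a mature B cell typically uses 1 heavy and 1 light V gene, and its choice of V gene passes to its daughters. The V gene in a cell's RNA is therefore shared by its lineage, but unrelated cells can use the same V gene. A population grown from few founders uses few V genes. Most mouse B cells carry kappa; lambda is the minor light chain.

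The ends of 11 V genes on which the results turn are shown here, because the bases after the conserved cysteine codon (capitals) open the CDR3, the stretch completed by joining. They are the last 60 bases of the germline transcript, 5′ to 3′ on the coding strand, from GENCODE for GRCm38, the assembly of mm10.
Ighv1-26: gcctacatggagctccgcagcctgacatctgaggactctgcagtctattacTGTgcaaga
Ighv3-6: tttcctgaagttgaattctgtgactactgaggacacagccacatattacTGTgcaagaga
Ighv9-3: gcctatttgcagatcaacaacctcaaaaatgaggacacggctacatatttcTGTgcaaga
Ighv14-2: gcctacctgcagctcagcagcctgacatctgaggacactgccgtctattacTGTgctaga
Igkv10-96: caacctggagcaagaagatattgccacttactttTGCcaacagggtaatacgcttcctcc
Igkv1-117: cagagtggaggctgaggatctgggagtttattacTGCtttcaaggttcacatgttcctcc
Igkv1-135: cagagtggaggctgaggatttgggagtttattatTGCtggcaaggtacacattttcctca
Igkv14-111: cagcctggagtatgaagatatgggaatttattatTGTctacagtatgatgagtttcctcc
Igkv15-103: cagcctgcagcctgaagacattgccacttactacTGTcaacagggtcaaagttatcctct
Iglv1: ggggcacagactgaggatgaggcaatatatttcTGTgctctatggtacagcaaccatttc
Iglv2: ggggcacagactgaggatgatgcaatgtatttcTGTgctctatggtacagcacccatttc

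The heavy V genes shown have 6 to 8 germline bases after the cysteine codon and the light V genes have 23 or 24. The Ighv genes span chr12:113572927-116010093, the Igkv genes chr6:67555497-70704177 and the Iglv genes chr16:19085017-19260859. Ighv1-26 lies at chr12:114788372-114788805 on the minus strand, Igkv10-96 at chr6:68631963-68632442 on the minus strand, Igkv14-111 at chr6:68256389-68256869 on the plus strand and Iglv1 at chr16:19085017-19085500 on the minus strand. Related V genes can share reads, and the authors' counting could have divided reads between them. Of the 216 members annotated as functional V genes (type IG_V_gene), 103 had another such member at 95% transcript identity or more, 20 at 98% or more, and none was identical to another. The nearest relative of Ighv1-26 was Ighv1-18 with 96.9% identity, that of Igkv1-117 was Igkv1-110 with 97.5%, and that of Iglv1 was Iglv2 with 96.7%. Shares of such neighbours are uncertain where their reads could have been exchanged.

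The vehicle library held 135415063 unique molecular identifiers (UMIs, single counted RNA molecules) in 17313 barcodes and the RP-6306 library 158073632 UMIs in 15909 barcodes. After filtering, 16082 and 14916 cells were kept, with a median of 3117 and 2847 UMIs. The libraries had 374 barcodes in common. Of these, 16 were B cells in both libraries; among 12 with an assigned heavy V gene in both, 0 had the same gene, and among 12 with an assigned light V gene in both, 1 had the same gene.

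B cells were grouped by clusters found without any immunoglobulin gene, so that V gene use had no part in the grouping. Naive-like B cells numbered 2169 in the vehicle and 2316 in the RP-6306 library. Ighd, the IgD heavy chain of naive B cells, stood at 392 and 402 CPM (UMIs of the gene scaled to 1000000 UMIs) in them. A cluster of 369 and 270 cells was led by Atxn1, Fcrl5 (an Fc receptor-like protein), Cd36 and Sox5. Over both libraries it held Fcrl5 at 86.7 CPM, Sox5 at 121 CPM and Mzb1 (a chaperone of antibody secretion) at 234 CPM, and it is called the Fcrl5 B cluster. It is a cluster and not a gate: 62.9% of its vehicle cells and 63.3% of its RP-6306 cells had a UMI of Fcrl5, Sox5 or Mzb1, against 23.7% and 27.9% of naive-like cells and 2.59% and 2.42% of T cells. Median depth was 2055 and 1846 UMIs in naive-like cells and 3231 and 3043.5 in the Fcrl5 B cluster. A small cluster of 52 and 16 cells was led by Mybl1, Nuggc and Gcsam, genes expressed by germinal centre B cells, and held Sox5 at 478 CPM, Mzb1 at 481 CPM and Fcrl5 at 10.6 CPM; it is called germinal centre-like. Different subclusters held much of the naive-like group in each library: 1 subcluster had 902 vehicle and 114 RP-6306 cells, and another had 124 and 961.

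Most B cells had V gene UMIs. At least 1 heavy V UMI was found in 81.7% of naive-like vehicle cells (80.0 to 83.3) and 87.8% of naive-like RP-6306 cells, and in 90.2% and 97.0% of cells of the Fcrl5 B cluster. At least 1 light V UMI was found in 93.6% and 95.3% of naive-like cells and in 98.1% and 97.4% of the Fcrl5 B cluster. In T cells, which do not use these genes, the share with a heavy V UMI was 2.22% in the vehicle and 0.955% in the RP-6306 library, and with a light V UMI 3.98% and 1.98%, at median depths of 2978 and 2535 UMIs. V gene UMIs in the B cell groups were far above the level in T cells of the same library.

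A cell was assigned a V gene where 1 gene of the chain had the most UMIs and at least 66.7% of that chain's V UMIs. A heavy V gene was assigned to 78.6% of naive-like vehicle cells, 84.5% of naive-like RP-6306 cells, 86.4% of vehicle cells of the Fcrl5 B cluster and 92.6% of its RP-6306 cells. A light V gene was assigned to 85.7%, 85.7%, 83.5% and 83.0% in the same order. Cells with at least 2000 UMIs were also thinned to 2000, which left out 981 and 1446 naive-like and 8 and 16 Fcrl5 B cluster cells. A heavy V gene was then assigned to 80.7% and 88.2% of naive-like cells and to 78.1% and 89.4% of the Fcrl5 B cluster. Among these cells the RP-6306 library was still higher, and the Fcrl5 B cluster was no longer above naive-like cells in the vehicle. Many more naive-like cells were left out, so the groups also differ in which cells remain. In the B cells of both libraries, 103 members had no UMI at all and 181 had 20 or more. Of the 130 members annotated as pseudogenes, 91 had no UMI in B cells, and pseudogenes gave 0.494% of all V gene UMIs. Of the 216 functional V genes, 10 had none. In all, 214 members were assigned to at least 1 B cell and 157 to 10 or more.

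Heavy V gene use in naive-like cells was broad and much alike in the libraries. Ighv1-26 had the highest share in each, with 6.10% of 1704 assigned vehicle cells (5.01 to 7.35) and 6.54% of 1958 assigned RP-6306 cells (5.48 to 7.72). Ighv3-6 followed with 3.52% (2.70 to 4.51) and 4.85% (3.94 to 5.90). These intervals overlap, as they did for Ighv1-55 (3.29% and 2.60%), Ighv1-64 (3.35% and 2.45%), Ighv9-3 (3.11% and 2.60%) and Ighv1-18 (2.70% and 3.17%). The Ighv1 family, the largest of the mouse, was used by 60.7% and 60.4% of assigned cells. Over the 68 heavy V genes with at least 10 assigned cells, the shares of the libraries had a Pearson r of 0.93; the genes share libraries and sequence and are not independent points.

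Light V gene use was as broad. Igkv10-96 led with 5.49% of 1858 assigned vehicle cells (4.50 to 6.62) and 6.85% of 1985 assigned RP-6306 cells (5.78 to 8.05). Igkv1-117 had 4.84% and 4.28%, Igkv1-135 had 3.98% and 3.17%, Igkv6-17 had 3.71% and 2.82%, and Igkv12-46 had 3.18% and 3.32%. Over 73 light V genes with at least 10 assigned cells, r between the libraries was 0.94. By position, the Igkv genes in the part of the locus closest to the J segments, which is 1 of 3 equal stretches, were used by 42.1% and 42.6% of kappa cells, those in the middle stretch by 26.3% and 28.7%, and those in the far stretch by 31.5% and 28.7%. For the Ighv locus the same stretches had 29.0% and 28.8%, 33.5% and 35.6%, and 37.5% and 35.5%.

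**Figure D1:**
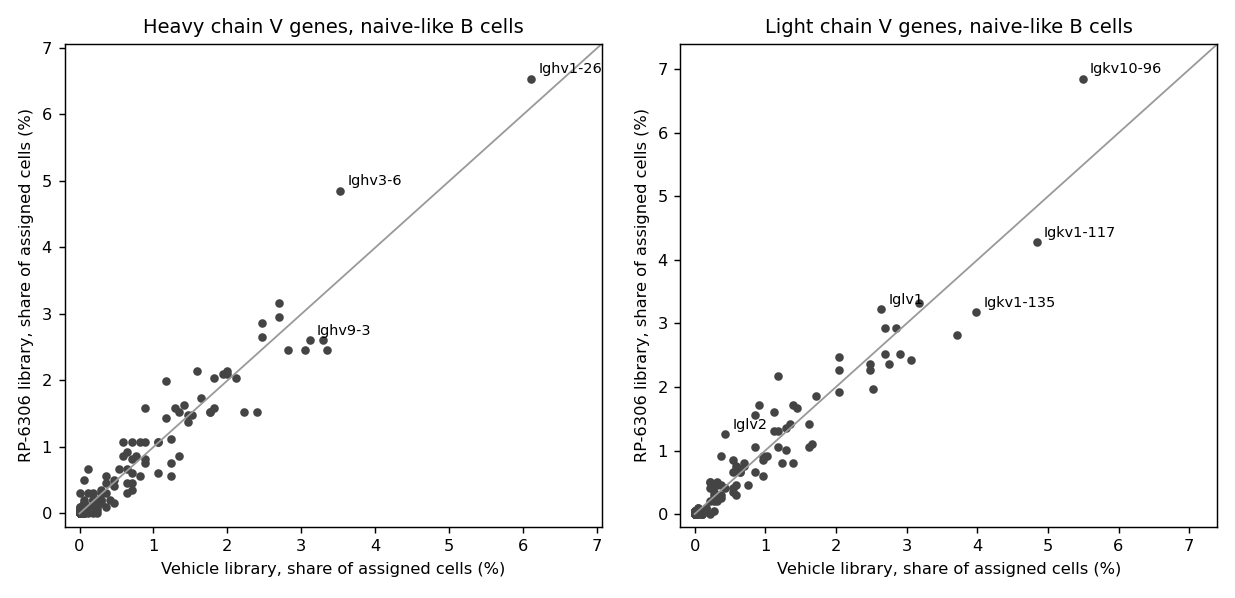
Share of assigned naive-like B cells (%) that used each V gene in the vehicle library (x axis) and in the RP-6306 library (y axis), for heavy (left) and light (right) V genes; each point is a gene and the line marks equal shares. Most genes lie near the line, with Ighv1-26 at 6.10% and 6.54% and Igkv10-96 at 5.49% and 6.85%.

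Lambda use was low in naive-like cells and in the Fcrl5 B cluster. Among cells with an assigned light V gene, 3.77% of naive-like vehicle cells (2.95 to 4.74) and 5.29% of naive-like RP-6306 cells used lambda, and 4.55% and 8.48% of the Fcrl5 B cluster. Iglv1 was the most used, with 2.64% and 3.22% of naive-like and 2.60% and 4.91% of Fcrl5 B cluster cells. Iglv2 was assigned to 8 naive-like vehicle cells (0.431%, 0.186 to 0.847) and 25 naive-like RP-6306 cells (1.26%, 0.817 to 1.85). Iglv3 had 0.700% and 0.806%. The naive-like intervals overlapped for Iglv1 and Iglv3, and narrowly for Iglv2. Iglv1 and Iglv2 have 96.7% identity, and some cells held UMIs of more than 1 Iglv gene. Such cells can stay unassigned, so the split between the Iglv genes is uncertain.

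The naive-like shares with the largest differences between the libraries belonged to both much used and less used genes. Beside Ighv3-6, Igkv10-96 and Iglv2 above, Ighv6-3 was used by 20 vehicle cells (1.17%) and 39 RP-6306 cells (1.99%), Ighv1-22 by 15 (0.880%) and 31 (1.58%), and Ighv1-75 by 41 (2.41%) and 30 (1.53%). Igkv4-59, a light V gene, was used by 22 (1.18%) and 43 (2.17%). For every gene named in this paragraph, the intervals of the libraries overlap. These genes were chosen for their difference, and with 1 library per group the difference cannot be compared with a spread between animals.

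The V genes most used by naive-like cells were also used by the Fcrl5 B cluster. Its heavy V shares followed the naive-like shares of their own library with an r of 0.79 in the vehicle (60 genes) and 0.69 in the RP-6306 library (59 genes), and its light V shares with 0.87 (58 genes) and 0.70 (59 genes). Between the libraries, the Fcrl5 B cluster's own shares had an r of 0.42 for heavy (21 genes) and 0.23 for light V genes (19 genes). These values rest on fewer genes, and only on 319 and 250 (heavy) or 308 and 224 (light) assigned cells. They are therefore not comparable with the values above and do not show that use differed between the libraries. Ighv1-26 had 18 of 319 assigned vehicle cells (5.64%, 3.38 to 8.77) and 9 of 250 RP-6306 cells (3.60%, 1.66 to 6.72). Ighv3-6 had 3.76% and 4.4%, and Ighv9-3 had 4.70% and 2.80%. The interval of every one of these overlaps that of the naive-like cells.

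The genes that moved the same way from naive-like cells to the Fcrl5 B cluster in each library rest on few cells. Ighv14-2 went from 1.47% to 2.51% (8 cells) in the vehicle and from 1.48% to 3.60% (9 cells) in the RP-6306 library, and Ighv1-53 from 2.0% to 3.45% and from 2.15% to 3.20%. Ighv14-4 went from 2.23% to 1.25% and from 1.53% to 0.400%. Among light V genes, Igkv1-110 went from 2.69% to 4.22% and from 2.52% to 4.91%, Igkv1-135 from 3.98% to 6.17% and from 3.17% to 4.46%, and Igkv5-43 from 1.67% to 0.325% and from 1.11% to 0.446%. These genes were picked for this pattern, so it has no independent support. Igkv12-46 had 3.90% in the vehicle and 0.893% in the RP-6306 library within the Fcrl5 B cluster, and Igkv6-23 had 1.95% and 5.80%, with intervals that overlap.

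**Figure D2:**
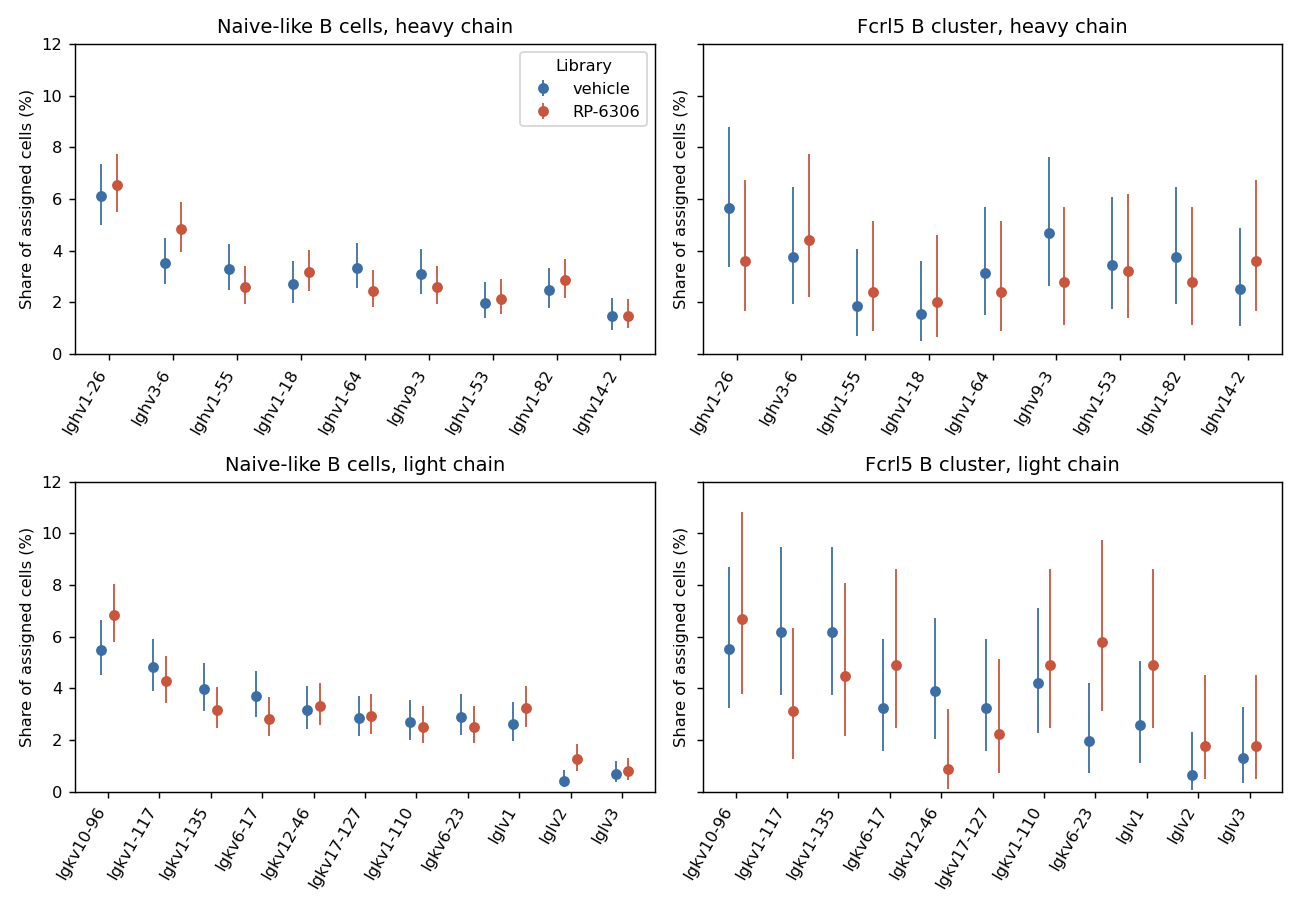
Share of assigned cells (%) for the most used heavy V genes (top row) and light V genes with the 3 Iglv genes (bottom row) in naive-like B cells (left) and the Fcrl5 B cluster (right); points are libraries and bars are exact 95% intervals for counting error. Intervals are several times wider in the Fcrl5 B cluster, where 224 to 319 cells were assigned.

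V genes known from the antibodies of mouse B-1 cells, a self-renewing B cell lineage of the body cavities, each had at most 0.753% of assigned naive-like cells. In the Fcrl5 B cluster each rested on at most 3 cells, so rarity is not shown there. Ighv7-1, for example, had 1.2% of its RP-6306 cells (0.248 to 3.47). Ighv11-2, used by antibodies against phosphatidylcholine, was assigned to 2 and 1 naive-like cells and to 1 and 1 cells of the Fcrl5 B cluster. Ighv12-3, used by the same kind of antibody, had 4 and 0 naive-like cells and 1 and 0 cells of the Fcrl5 B cluster. Igkv14-126 had 7 and 9 naive-like and 3 and 0 Fcrl5 B cluster cells, and Igkv4-91 had 14 and 9 and 0 and 2. Ighv7-1, known from antibodies against phosphocholine, had 1 naive-like vehicle cell (0.0587%, up to 0.327) and 10 naive-like RP-6306 cells (0.511%, 0.245 to 0.937), and 0 and 3 cells in the Fcrl5 B cluster. Igkv7-33 had 1 and 0 naive-like cells and none of 308 and 224 in the Fcrl5 B cluster, which allows up to 1.19% and 1.63%. Ighv5-2, which lies near the D segments and is favoured in fetal life, had 3 and 4 naive-like cells and 0 and 2 cells of the Fcrl5 B cluster. Ighv1-72, known from antibodies against the hapten NP in C57BL/6 mice, was in the common range with 2.11% and 2.04% of naive-like and 2.19% and 2.40% of Fcrl5 B cluster cells.

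Evenness was described by the effective number of V genes, the number of equally used genes that would give the same chance that a pair of cells shares a gene (inverse Simpson index). In naive-like cells it was 49.6 heavy V genes in the vehicle and 47.6 in the RP-6306 library, and 45.6 and 45.0 light V genes. Pielou's evenness, which is 1 when all genes seen are used equally, was 0.900 and 0.895 for heavy and 0.898 and 0.898 for light V genes. The 10 most used genes held 33.1% and 33.1% of assigned cells for the heavy and 35.5% and 34.6% for the light chain. No single V gene was used by more than 6.85% of the assigned naive-like cells.

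In the Fcrl5 B cluster the effective number was 51.4 and 58.6 heavy and 39.1 and 41.9 light V genes. The heavy number exceeded that of the naive-like cells by 1.85 in the vehicle and 11.0 in the RP-6306 library. With the Shannon effective number the difference was -7.92 and -5.17, but this number tends to fall when fewer cells are assigned. A heavy V gene was assigned to 319 and 250 cells of the Fcrl5 B cluster and to 1704 and 1958 naive-like cells. For the number of genes expected in an equal 200 cells, the difference was -1.46 and 2.61, so the direction turned in the vehicle only. The light number fell short of the naive-like one by 6.53 (vehicle) and 3.14 (RP-6306). Of 14 alternatives tried, 1 turned this direction in the vehicle and 3 in the RP-6306 library. Pielou's evenness did so in both: it was 0.914 and 0.922 for light V genes of the Fcrl5 B cluster and 0.936 and 0.943 for its heavy V genes, above the naive-like values. It is scaled to the genes seen and tends to be higher when fewer cells are assigned. The 10 most used light V genes held 43.5% and 43.3% of the Fcrl5 B cluster (308 and 224 assigned cells), a share that tends to rise when fewer cells are assigned. In the B cluster led by Ifit3 the same share was 37.4% and 41.0% (313 and 378 cells). In that led by Srm it was 40.2% and 36.4% (291 and 236 cells). Their effective light numbers were 48.1 and 39.7 for Ifit3 and 43.2 and 50.7 for Srm.

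**Figure D3:**
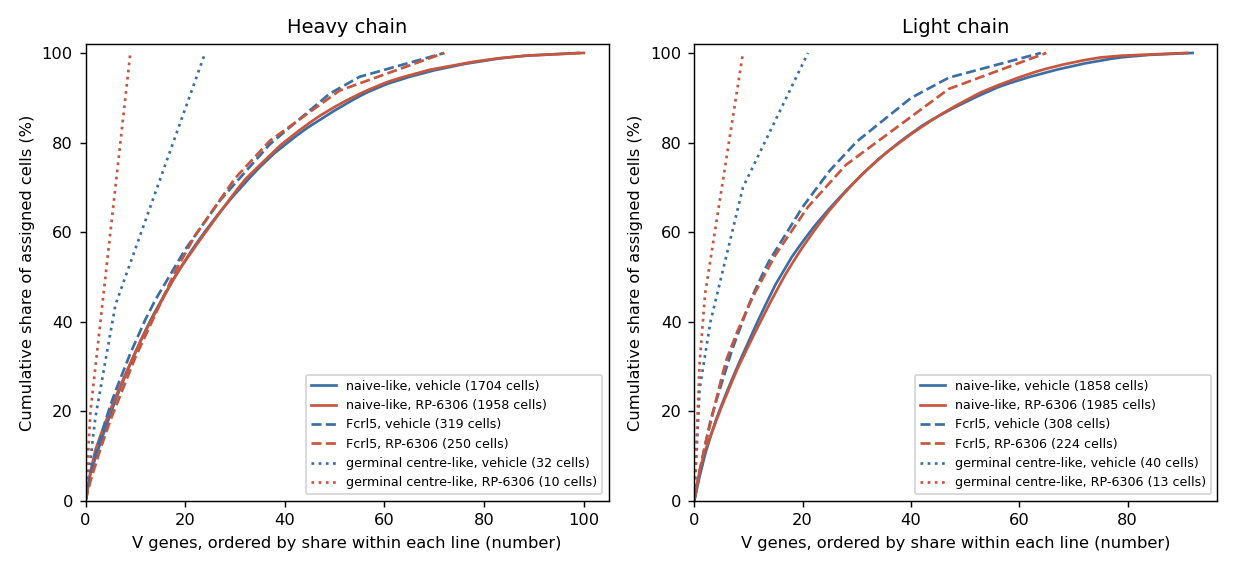
Cumulative share of assigned cells (%) against the number of V genes, ordered from most to least used within each line, for heavy (left) and light (right) V genes. The lines of the libraries lie together in naive-like cells; the germinal centre-like lines rest on 10 to 40 cells and end early for that reason.

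The germinal centre-like cluster held few cells and repeated some light V genes. Igkv14-111 was used by 10 of its 40 assigned vehicle cells (25%, 12.7 to 41.2) and 2 of its 13 assigned RP-6306 cells (15.4%, 1.92 to 45.4). The same gene had 2.74% and 2.37% in naive-like cells and 2.92% and 0.893% in the Fcrl5 B cluster. The vehicle interval lies above the naive-like share; the RP-6306 interval contains it. Igkv15-103 had 4 of the 13 RP-6306 cells. The effective number of light V genes was 13.7 (40 cells) and 11.1 (13 cells), and that of heavy V genes 49.6 (32 cells) and 45.0 (10 cells), more than the 24 and 9 genes seen and so poorly fixed at this cell number. Pielou's evenness of its light V genes was 0.900 and 0.925, not below that of naive-like cells, but it tends to be higher with so few cells. Igkv15-103 and Igkv14-111 were singled out after their values were seen.

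Of the 10 vehicle cells with Igkv14-111, 7 had an assigned heavy V gene, of 5 kinds. Ighv14-2 was the partner in 3 of them, which is 3 of the 26 vehicle cells with both chains assigned (11.5%, 2.45 to 30.2). At least 1 UMI of the switched constant genes Ighg1 or Ighg2b was found in 5 of the 10 vehicle cells and in 2 of the 2 RP-6306 cells. In the whole cluster, Ighg1 (IgG1) had UMIs in 40.4% and 43.8% of cells, against 1 of 2169 and 0 of 2316 naive-like cells.

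Heavy and light V genes were paired widely. In naive-like cells with both chains assigned, 1478 vehicle cells carried 1113 different pairs and 1695 RP-6306 cells carried 1237. The most frequent vehicle pair, Ighv1-26 with Igkv10-96, which are the most used genes of their chains, was in 10 cells (0.677%, 0.325 to 1.24), followed by Ighv8-8 with Igkv1-117 in 7. No pair was in more than 9 naive-like RP-6306 cells. In the Fcrl5 B cluster 269 vehicle cells carried 249 pairs, none in more than 2 cells, and 211 RP-6306 cells carried 200, none in more than 3. The share of cell pairs with the same V gene pair was 0.0508% in naive-like vehicle cells, and the product of the shares of the single chains was 0.0434%; in the RP-6306 library these were 0.0505% and 0.0475%. The data hold no junction sequence, so a shared pair does not show shared descent.

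Single cells sometimes held more than 1 V gene of a chain. Among cells with at least 2 UMIs of a light V gene, a second light V gene with at least 2 UMIs was found in 12.7% of naive-like vehicle cells (11.2 to 14.3), 15.2% of naive-like RP-6306 cells, and 22.8% and 27.1% of cells of the Fcrl5 B cluster. For heavy V genes the shares were lower, at 2.21% and 4.06% and at 4.58% and 9.96%. With cells of at least 2000 UMIs thinned to 2000, the light shares were 12.4%, 15%, 17.5% and 19.0%, and the heavy shares 1.82%, 3.26%, 2.07% and 4.84%. Thinning left out 981 and 1446 naive-like and 8 and 16 Fcrl5 B cluster cells. Few of the second genes were close relatives of the first: in naive-like cells 9 of 226 and 10 of 306 light pairs had a transcript identity of 95% or more, with median identities of 63.1% and 63.2%. The most frequent pairs were both lambda. Over both libraries and the naive-like, Fcrl5 and germinal centre-like groups, Iglv1 occurred with Iglv3 in 19 cells and with Iglv2, its close relative, in 16. In the clusters with both B and T cell markers, a second light V gene was found in 29.2% and 19.8% and a second heavy V gene in 14.2% and 9.25%. The part of cell doublets in the second genes was not tested.

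V gene RNA was higher in the RP-6306 library. Heavy V genes together had 1140 CPM in naive-like vehicle cells and 1605 CPM in naive-like RP-6306 cells, a log2 ratio of 0.49 (0.44 to 0.55). Igkv genes had 2439 and 3064 CPM (0.33) and Iglv genes 144 and 186 CPM (0.36). Ighm was at 749 and 648 CPM (-0.21), Ighd at 392 and 402 CPM (0.03), Igkc at 371 and 362 CPM (-0.04) and Cd79a, the signalling partner of the receptor, at 1462 and 1680 CPM (0.20). RNA of other cell types also differed: the 6 tumour markers summed to 106 and 71.7 CPM (3 lower, 2 higher and 1 at 0 in each library), the 8 T cell markers to 36.9 and 20.3 CPM (8 lower), and the 7 macrophage and monocyte markers to 37.5 and 31.1 CPM (5 lower, 2 higher). In the Fcrl5 B cluster these sums were 74.5 and 44.2, 36.5 and 15.1, and 58.2 and 46.4 CPM. Their part in the V gene levels was not tested.

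Heavy V, light V and Cd79a levels were higher in the RP-6306 library in 6 of 6 naive-like subclusters, Ighm in 0 of 6, and Ighd and Igkc in 3 of 6. The subclusters are cells of the same libraries and not replicates, so a shift of a whole library would appear in all of them. Heavy V levels in the subclusters were 1094 to 1320 CPM in the vehicle and 1535 to 1759 CPM in the RP-6306 library, with no overlap. Light V levels were 2496 to 2980 and 2937 to 3443 CPM, with overlap, and Ighm was 697 to 830 and 620 to 676 CPM. In the Fcrl5 B cluster, heavy V genes had 1120 and 1588 CPM (0.50), Igkv genes 2407 and 2571 CPM (0.10) and Iglv genes 190 and 414 CPM (1.12). T cells moved in the same direction for their own receptor genes. The V genes of the T cell receptor beta chain had 864 and 1124 CPM (0.38) and its constant genes 847 and 918 CPM (0.12), and those of the alpha chain had 289 and 429 CPM (0.57) and 302 and 365 CPM (0.27).

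V UMIs per constant UMI in naive-like cells were accordingly 0.996 and 1.52 for the heavy chain, 6.57 and 8.46 for kappa and 0.190 and 0.242 for lambda. In T cells they were 0.957 and 1.18 for the alpha and 1.02 and 1.22 for the beta chain. The ratio was higher in the RP-6306 library in all 5 comparisons. The lambda ratio counts the constant genes Iglc1, Iglc2 and Iglc3 in all naive-like cells, including those assigned kappa. Among all B cells, Iglc2 had 2626 vehicle and 2365 RP-6306 UMIs in cells assigned an Igkv gene. Cells assigned an Iglv gene held 129 and 161. The lambda ratio is therefore not that of lambda-assigned cells. The V segment lies at the 5′ end of the transcript and the constant exons at its 3′ end, and the libraries are labelled 3′. The part of the library preparation in these ratios was not tested.

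**Figure D4:**
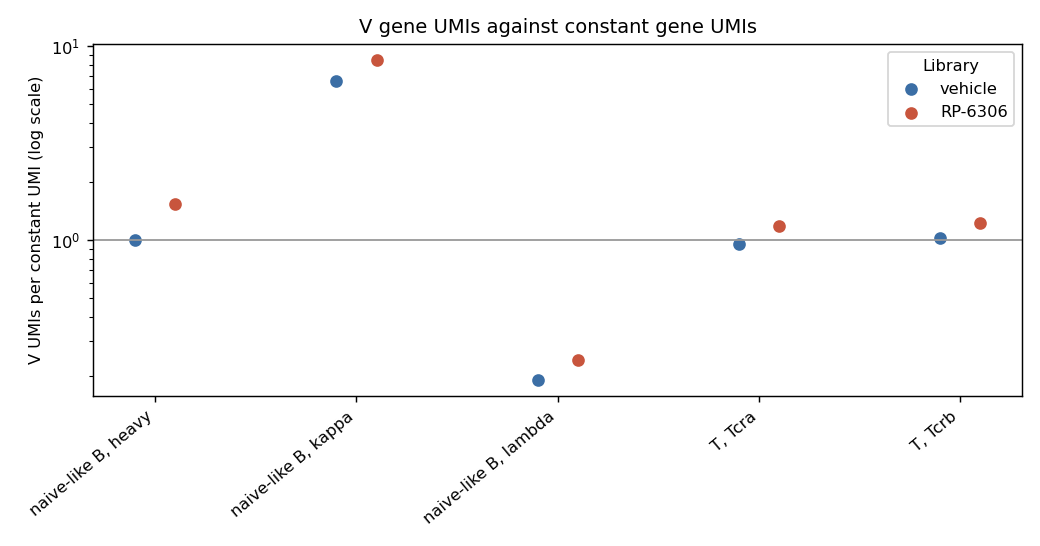
V gene UMIs per constant gene UMI (y axis, log scale) for heavy, kappa and lambda chains in naive-like B cells and for the T cell receptor alpha (Tcra) and beta (Tcrb) chains in T cells; each point is a library and the line marks equal numbers. The RP-6306 point is above the vehicle point in all 5 columns, and kappa stands at 6.57 and 8.46. The lambda column counts lambda constant UMIs of all naive-like cells, including those assigned kappa.

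Gene by gene, 171 members had at least 20 UMIs in naive-like cells over both libraries. The background share of all 10895 genes that were 2-fold higher in the RP-6306 library was 0.542% and that of genes 2-fold lower was 2.70%; of the 171 V genes 21 (12.3%) were higher and 6 (3.51%) lower. Their median log2 ratio was 0.35 and that of all genes 0.03. In the Fcrl5 B cluster 30 of 103 members (29.1%) were higher and 13 (12.6%) lower, with backgrounds of 1.43% and 2.60%, and the medians were 0.37 and 0.02. Comparing the Fcrl5 B cluster with naive-like cells, 14 of 152 members were 2-fold higher and 35 lower in the vehicle (backgrounds 1.49% and 3.38%), and 24 of 157 and 34 in the RP-6306 library (1.87% and 4.29%).

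The UMIs of a V gene come from few cells, which widens its error beyond counting. In naive-like vehicle cells a heavy V gene with at least 20 UMIs had them in a median of 23 cells, and in the Fcrl5 B cluster in 9 cells, where a single cell gave a median of 25.9% of them. These counts past 2-fold are therefore not comparable with those of genes that every B cell expresses. Iglv2 had 21.8 and 40.1 CPM in naive-like cells (log2 ratio 0.85, 0.51 to 1.25), while Ighv7-1 had 4 and 34 UMIs (2.22, 1.64 to 5.08).

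A single cell carried a large part of the UMIs of 1 light V gene. In this vehicle cell of the B cluster led by Srm, with 10965 UMIs, Ighv1-76 had 932 UMIs and Igkv14-111 had 1522, together with 284 UMIs of Ighg1 and 111 of Jchain, the joining chain of secreted antibody. V genes made up 22.9% of the cell's UMIs. It held 54.5% of all Igkv14-111 UMIs of the B cells, so levels of that gene over all B cells rest on it. The cell is in none of the naive-like, Fcrl5 and germinal centre-like groups. It counts as 1 cell in the evenness of the Srm cluster above and among the B cells assigned an Igkv gene below.

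Among the other genes of the receptor pathway, none of the 2 measured heavy constant genes, 4 light constant genes and 11 genes for receptor partners and signalling was past 2-fold between the libraries in naive-like cells, with medians of -0.09, -0.03 and -0.01 against 0.03 for all genes. Rag1, which cuts V segments in precursors, had no UMI in any of the 3 groups, which limits cells with a detected UMI to at most 0.170% of naive-like vehicle cells and does not limit the cells that express it. Dntt, which adds bases at the junction, had 1 UMI in 2316 naive-like RP-6306 cells and 0 in the vehicle.

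The light-chain constant genes followed the assigned V gene only in part. In B cells assigned an Igkv gene, Igkc had UMIs in 53.5% of 2781 vehicle and 48.5% of 2715 RP-6306 cells, against 15.7% of 121 and 18.5% of 168 cells assigned an Iglv gene. Iglc1, the usual constant gene of Iglv1, had UMIs in 38.8% of 85 and 31.7% of 104 cells assigned Iglv1, and in 8.16% and 6.52% of Igkv cells. Iglc2 had UMIs in 50.3% (48.5 to 52.2) and 48.0% of Igkv cells, and in 52.9% and 57.1% of Iglv cells. Iglc3 had 49.7% and 44.6% of Igkv cells, and 33.9% and 31.0% of Iglv cells. In T cells the same shares were 0.830% and 0.336% for Iglc2 and 0.788% and 0.318% for Iglc3. Iglc2 and Iglc3 UMIs were thus about as common in cells assigned kappa as Igkc itself, and far above their level in T cells.

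**Figure D5:**
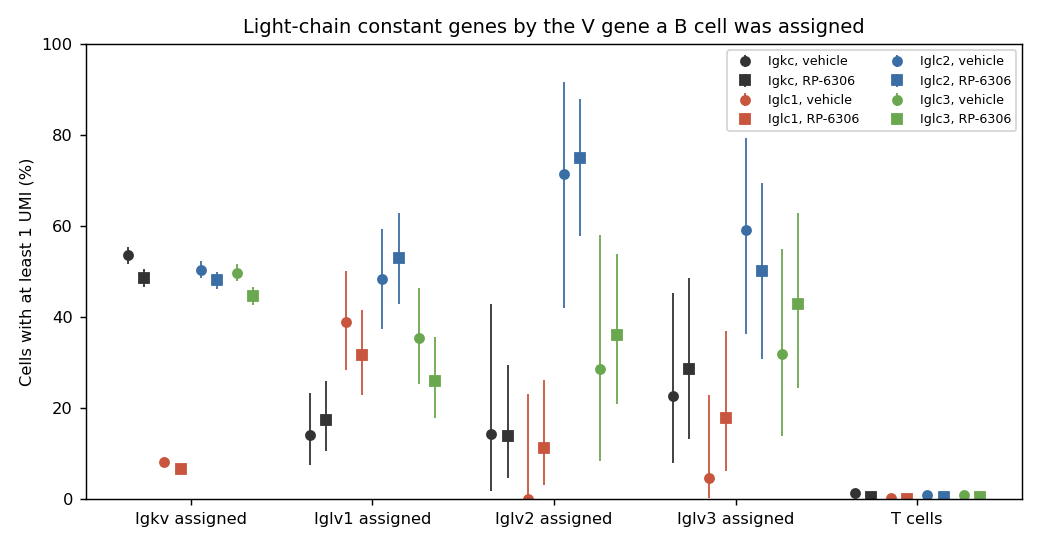
Share of cells (%) with at least 1 UMI of Igkc, Iglc1, Iglc2 or Iglc3 in B cells assigned an Igkv gene or each Iglv gene and in T cells; circles are the vehicle and squares the RP-6306 library, with exact 95% intervals. Iglc2 and Iglc3 lie at 44.6% to 50.3% in Igkv cells, beside Igkc at 48.5% and 53.5%.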

How the data were processed

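The authors deposited counts per gene and cell barcode (whole numbers of UMIs, not normalized). Cell Ranger 2.1.1 and mm10 are named in the submitters' processing notes; the sources used here do not say how reads shared by similar V genes were counted. Cells needed 500 UMIs, 300 genes and at most 15% mitochondrial UMIs. Scrublet's own threshold called 1 and 0 doublets, so it did not work, and the 6% of cells with the highest score were removed per library. Cells were clustered (scanpy 1.11.5, leidenalg 0.10.2: 2000 variable genes, 30 components, 15 neighbours, resolution 1) without 395 immunoglobulin genes, and B clusters were clustered again. The planned rule took the B cluster with the highest Fcrl5, Sox5 and Mzb1; after the second clustering that was the germinal centre-like cluster, so the Fcrl5 B cluster was added after its markers were seen. Levels are log2 ratios of CPM with a pseudocount of 1 CPM, for genes with 20 or more UMIs, with exact conditional binomial intervals. Functions were tested on simulated data. Named genes were the 6 most used Ighv and Igkv genes per group, all Iglv genes, 8 textbook V genes, up to 5 with the largest difference between groups or libraries, and the most frequent pairs. Members and lists were chosen with earlier results of these data known. Depth per library is given with the results. Identities were computed with edlib 1.3.9.post1.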

Additional observations from a re-analysis of the deposited data

Results flagged for a closer look

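V gene UMIs appeared outside the B cell groups, in cells the comparisons do not use. Heavy V UMIs were found in 2.22% of vehicle and 0.955% of RP-6306 T cells, and light V UMIs in 3.98% and 1.98%. Macrophages and monocytes had heavy V UMIs in 4.81% and 3.15% of cells and light V UMIs in 8.27% and 5.0%. Tumour cells, at median depths of 26256.5 and 31282 UMIs, had 5.02% and 4.52% for heavy and 7.65% and 6.40% for light V genes. In the clusters with B and T cell markers, heavy V UMIs were in 82.6% of vehicle and 84.8% of RP-6306 cells, and these cells used V genes about as evenly as naive-like cells, with 50.9 and 51.2 effective heavy V genes.

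Constant lambda genes had UMIs in B cells assigned a kappa V gene: Iglc2 in 50.3% of vehicle and 48.0% of RP-6306 cells, and Iglc3 in 49.7% and 44.6%. The cause was not tested.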

How the results depend on the processing

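The effective numbers of V genes in naive-like cells and the Fcrl5 B cluster stayed within 1.5 times of the values above under the 13 alternatives run on them; the germinal centre-like cluster was not among these, and its Shannon numbers were 21.9 and 8.71 for heavy and 15.5 and 7.63 for light V genes. The direction of their difference between the Fcrl5 B cluster and naive-like cells was not stable. The Shannon number and Pielou's evenness also depend on the number of assigned cells, which was lower in the Fcrl5 B cluster. In the vehicle the difference became -0.844 with at least 2 UMIs for the assigned gene, -3.67 with immunoglobulin genes kept in clustering, -1.44 at resolution 0.5, -0.409 with clusters of all cells only, -7.92 with the Shannon number, -16.9 over UMIs and -1.46 for the genes expected in 200 cells. In the RP-6306 library it became -0.0936 with at least 1000 UMIs per cell, -5.17 with the Shannon number and -2.18 over UMIs. For light V genes it turned in the vehicle to 0.0160 with Pielou's evenness, and in the RP-6306 library to 0.0231 with Pielou's evenness, 1.34 with at least 1000 UMIs and 1.17 for the genes expected in 200 cells. The cause was not tested.

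Shares of cells with an assigned gene followed the rule, by construction. In the order naive-like vehicle, naive-like RP-6306, Fcrl5 vehicle and Fcrl5 RP-6306, at least 2 UMIs gave 55.6%, 65.7%, 74.8% and 81.9% for heavy, and 75.8%, 78.7% and 78.3% (first 3 groups) for light V genes. Any single top gene gave 96.3% for heavy V genes in the last group, and 90.6%, 91.9%, 94.9% and 94.4% for light. Cells split by 1 UMI of Fcrl5, Sox5 or Mzb1 gave 76.6%, 82.1%, 81.1% and 87.9% for heavy, and 81.9% and 82.1% in cells without one for light. Thinning to 2000 UMIs gave 80.7%, 88.2% and 78.1% for heavy and 87.8% for light V genes in naive-like vehicle cells. At least 1000 UMIs gave 83.4% for light V genes there, and clusters of all cells only gave 75.3% and 82.5% for heavy V genes in naive-like cells.

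The numbers of V genes past 2-fold depended on low counts. With a pseudocount of 10 CPM, 3 were higher and 0 lower in naive-like cells, and 8 lower in the Fcrl5 B cluster. With no minimum of UMIs, 11 were lower in naive-like cells, and 72 higher and 34 lower in the Fcrl5 B cluster. The share over all genes was not computed at these settings. These counts therefore have no background and cannot be set against the background shares given above. The median log2 ratio stayed positive under these alternatives. The alternatives with clusters of all cells only and with 200 cells were added after the data were seen. At resolution 0.5 the second clustering stayed at 1, because the Fcrl5 cells formed no cluster of their own otherwise. No paired analysis was possible because each group has 1 library. Depth limits the assignment of heavy V genes, with 2.34 and 3.01 heavy V UMIs per naive-like cell.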
